A study of Mus musculus with 30 samples.

Results

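The sodium, potassium and calcium channel subunits described here were 134 of the 38720 gene symbols in the deposited tables. They were chosen by symbol alone, as all symbols that start with Kcn, Cacn or Scn and a digit, without the noncoding Kcnq1ot1 and without antisense transcripts ending in os. Their RNA was measured in retinas of newborn mice, dissociated with papain and divided with magnetic beads against CD90, the product of Thy1, into retinal ganglion cells (RGCs) and the remaining cells, which the labels describe as pooled. The deposited tables hold 3 groups of 3 poly(A) RNA libraries: RGCs of wild type (WT) C57BL/6 mice, RGCs of mice called mutant, and non-RGC cells of mice called mutant. The series has mutants with Math5Cre and Ezh2f/f, or with Math5Cre and Ezh2f/fG9af/+, and the tables do not say which of them they use. Ezh2 encodes the methyltransferase of Polycomb repressive complex 2 and G9a, encoded by Ehmt2, another histone methyltransferase. Cre was driven from Math5 (Atoh7), which is active in progenitors that give rise to ganglion cells and to some other retinal neurons. Recombination was not measured in either fraction here. WT non-RGC libraries, and 12 chromatin immunoprecipitation and input samples, were not analysed here.

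Ganglion cells are the retinal neurons that send spikes down the optic nerve. A spike rises through voltage-gated sodium channels, ends through voltage-gated potassium channels, and opens calcium channels that release transmitter, while inward rectifier and two-pore-domain potassium channels set the resting potential. Each channel has pore subunits, which form the ion pathway, and auxiliary subunits, which alter its gating and carry it to the membrane. At birth the ganglion cells have begun to spike, whereas progenitors are still dividing and rods and bipolar cells are still being made.

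The 9 libraries held between 10551825 and 12259494 reads assigned to genes. Library numbers 1 to 3 follow falling size factors in each group, which ties no number to a sample and pairs nothing between groups. Separate animals or pools are not stated for the libraries of a group, and p-values here reflect only how these libraries scatter, which may be technical. Ezh2 had 1154, 1169 and 1576 normalised counts in WT RGCs and 1962, 1863 and 1811 in mutant RGCs, and was higher in the mutant (log2 fold change 0.58, SE 0.13, limma adjusted p = 0.0292). Ehmt2 had 3743, 3603 and 3857 counts in WT RGCs and 2364, 2799 and 2962 in mutant RGCs. It was lower in the mutant (log2 fold change -0.43, SE 0.11, limma adjusted p = 0.0332). Reads of transcripts lacking the floxed exons still count, and the sources used here do not name the floxed exons. These levels hence check no deletion and do not tell which of the mutants was used. Summed over 28 ganglion cell markers, the level was between 61434 and 72231 in WT RGCs, between 32948 and 48480 in mutant RGCs and between 15494 and 21726 in mutant non-RGC cells. The 26 proliferation genes summed to between 19497 and 33773, between 44549 and 45873, and between 53163 and 54688 in the same order. WT library 3 had the lowest ganglion cell sum and the highest proliferation sum of the WT libraries, and mutant RGC library 1 the lowest ganglion cell sum of the mutant RGCs.

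Channel subunit RNA was lower in mutant than in WT RGCs across nearly all classes. Summed over the 134 genes, the normalised count was 89050, 89698 and 64936 in WT RGCs, 43127, 53405 and 54304 in mutant RGCs, and 35626, 37188 and 33875 in mutant non-RGC cells. The 3 groups did not overlap in this sum, and WT library 3 lay nearest to the mutant RGCs. A gene was tested if its normalised count averaged 10 or more across both groups. Of the 107 members tested, 41 fell and 4 rose in mutant RGCs at a limma adjusted p under 0.05, and 62 did not pass. Over all 15276 genes tested, 12.3% fell and 13.7% rose. The median log2 fold change was -0.71 over the members and 0.00 over all genes tested, and 91 of the 107 members had a negative value. WT and mutant RGCs did not overlap for 63 members that were lower in the mutant, where this held for 24.9% of all genes tested. The authors' deposited table called 43 members lower and 5 higher at an adjusted p under 0.05, where it called 6.48% of all genes with a p lower and 5.45% higher. Scn3a, Scn3b, Kcnd2 and Kcns2, which missed the limma threshold, were among those that it called lower (adjusted p = 0.0378, 0.0117, 0.0244 and 0.0247 in the authors' deposited table). In bulk libraries, fewer ganglion cells among the selected cells and less channel RNA per ganglion cell cannot be told apart.

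The number of calls between genotypes depended on single libraries. With limma, no member was called without WT library 1, WT library 2, mutant RGC library 2 or mutant RGC library 3, while 47, 51, 69 and 66 members had an unadjusted p under 0.05 in those fits, against 77 with all 6 libraries. Each member's call between genotypes was therefore lost when any 1 of these 4 libraries was left out. Over all genes tested, 9, 8, 3 and 9 were called in those fits. Without WT library 3, the lowest WT library for 88 of the 107 members, 74 members fell and 8 rose. Without mutant RGC library 1, the lowest mutant RGC library for 75 of the 107, 24 fell and 4 rose. The number of members with a negative fold change stayed between 89 and 92 in these 6 fits.

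The second comparison shows how channel RNA divided between the bead-selected and the remaining cells of the mutant retina. It uses the same 3 mutant RGC libraries as the comparison of genotypes, so the values of a gene in the 2 comparisons are not independent and are given side by side. Of 109 members tested, 38 were lower and 1 was higher in non-RGC cells at a limma adjusted p under 0.05, where 12% of the 15178 genes tested were lower and 5.07% higher. The median log2 difference was -0.56 over the members and 0.01 over all genes, and 91 of 109 were negative. The groups did not overlap for 60 members that were lower in non-RGC cells, against 20.6% of all genes tested. The authors' deposited table called 35 members lower and 1 higher here, against 5.31% and 1.17% of its genes. Without mutant RGC library 2 or 3, or non-RGC library 1, limma called 13, 13 and 12 members lower and none higher (47, 43 and 51 at an unadjusted p under 0.05). Without mutant RGC library 1, non-RGC library 2 or non-RGC library 3 it called 48, 30 and 35 lower and 4, 1 and 2 higher.

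**Figure D1:**
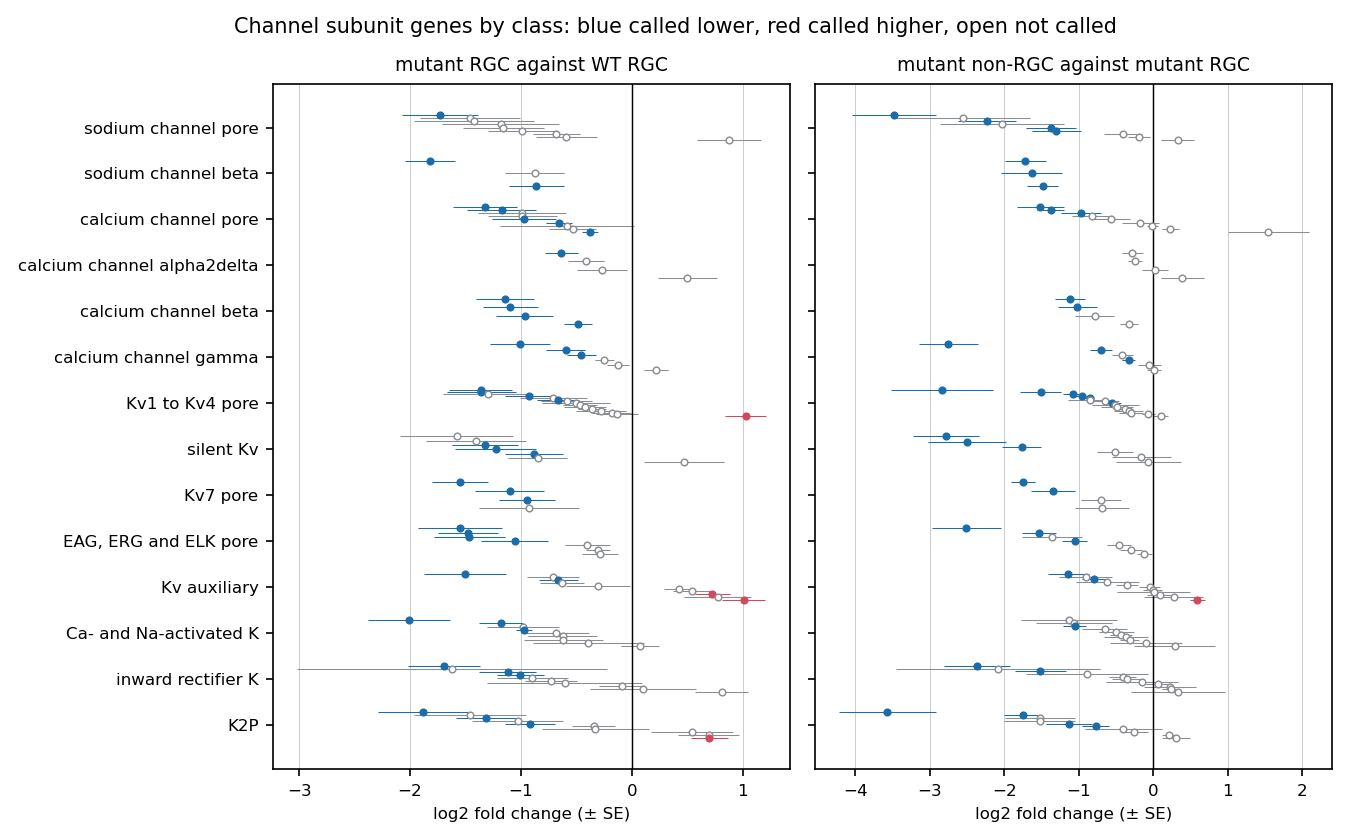
Log2 fold change (horizontal axis, with its standard error as bars) of each tested channel subunit gene by class, for mutant against WT RGCs on the left and mutant non-RGC against mutant RGC cells on the right, with horizontal scales that differ. Filled points passed a limma adjusted p of 0.05 (41 lower and 4 higher on the left, 38 lower and 1 higher on the right), open points did not, and most points lie left of 0 in both panels.

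The promoters of the members were compared as sequence. Polycomb complexes are known to act at CpG-rich promoters, and the mutant mice carry a floxed Ezh2. RefSeq windows on GRCm38.p6 were found for 99 of the 134 members, and the 250 bases before the first listed start were read. The median window of the 28 members that fell in mutant RGCs and have one was 61.6% G and C and held 11 CpG pairs. The 44 tested members that were not called had a median of 61.6% and 10, and the 4 that rose 49.2% and 4.5. All 27025 genes with a window, which were not filtered by level, had 52% and 6. The 23 members left untested for their low level had 53.2% and 5, near the values of all genes. Of the 99 windows, 48 end at the base before the annotated gene, while the others lie elsewhere, some inside the gene. In a comparison limited to those 48, added after the data were seen, the median was 52% G and C and 5 CpG pairs over 11 members that fell, 61% and 12 over 22 that were not called, and 50% and 4 over 19586 genes. The medians of members that fell thus depended on which windows were used, and 4 genes are too few to describe those that rose. The GC box GGGCGG, read on both strands, was in 57.1% of the windows of members that fell and 47.7% of those not called. It was in 50% of those that rose, 30.4% of members not tested and 32.9% of all genes. Members tested and all genes thus also differ in the filter on level. Among windows that end at the annotated gene these shares were 45.5% of the members that fell, 54.5% of those not called and 26.8% of all genes. The core letters CAGCACC of the element bound by the neuronal repressor REST were in 5.05% of all member windows and 5.70% of all genes, and the E-box CAGCTG in 24.2% and 12.8%, again on both strands. The E-box was in 17.9% of the windows of members that fell and 27.3% of those not called. Among windows that end at the annotated gene these shares were 0% and 31.8%, against 12.9% of all genes. The GC box contains a CpG pair. The windows below show a CpG-richer and a CpG-poorer one from each direction, Kcnh7 and Scn1a from members that fell and Kcne1l and Kcna5 from members that rose. Some members that fell had more CpG pairs than Kcnh7 or fewer than Scn1a. Each ends at the base before the RefSeq gene, lies on the minus strand, is written 5′ to 3′ on that strand, and has its CpG pairs in capitals.
Kcnh7, chr2:63184288-63184537: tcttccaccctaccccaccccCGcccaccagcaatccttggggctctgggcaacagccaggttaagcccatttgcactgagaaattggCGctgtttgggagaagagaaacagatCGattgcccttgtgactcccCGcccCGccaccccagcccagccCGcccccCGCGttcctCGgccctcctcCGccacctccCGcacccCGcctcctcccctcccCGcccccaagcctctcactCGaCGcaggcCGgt
Scn1a, chr2:66440838-66441087: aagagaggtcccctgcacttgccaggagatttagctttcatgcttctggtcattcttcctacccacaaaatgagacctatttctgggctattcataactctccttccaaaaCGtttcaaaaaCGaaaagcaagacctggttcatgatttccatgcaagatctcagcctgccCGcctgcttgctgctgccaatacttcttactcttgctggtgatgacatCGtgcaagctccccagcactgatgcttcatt
Kcne1l, chrX:142306199-142306448: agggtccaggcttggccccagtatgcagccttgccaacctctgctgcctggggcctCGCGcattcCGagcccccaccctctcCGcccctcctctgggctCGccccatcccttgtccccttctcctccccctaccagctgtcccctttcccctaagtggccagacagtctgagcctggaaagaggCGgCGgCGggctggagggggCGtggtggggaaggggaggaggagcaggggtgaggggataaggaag
Kcna5, chr6:126535556-126535805: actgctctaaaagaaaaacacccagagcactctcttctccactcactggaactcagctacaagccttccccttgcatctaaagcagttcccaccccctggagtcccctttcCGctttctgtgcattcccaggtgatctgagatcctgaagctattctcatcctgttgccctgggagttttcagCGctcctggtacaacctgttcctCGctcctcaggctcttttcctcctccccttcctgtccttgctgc
Kcnh7 had 16 CpG pairs and 4 GC boxes in its window, Scn1a 4 and 0, Kcne1l 9 and 1, and Kcna5 3 and 0. CpG-rich and CpG-poor windows thus stood among the genes that fell. A match is a description of letters and shows no binding, and the chromatin samples were not analysed here.

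Voltage-gated sodium channel pore genes carry the rising phase of the spike. Between genotypes, 8 of 9 tested members had negative log2 fold changes, and only Scn1a passed with limma. This limma share is 11.1% of the class, near the 12.3% of all genes tested that fell. The authors' deposited table called Scn1a, Scn3a and Scn9a lower (adjusted p = 0.000475, 0.0378 and 0.0231), where it called 6.48% of all genes with a p lower. For all classes, the shares over all genes tested were 12.3% lower and 13.7% higher between genotypes. Between fractions they were 12% lower and 5.07% higher in non-RGC cells. Scn1a (chromosome 2, 66270781 to 66440837), which encodes Nav1.1, had 1231, 1168 and 711 normalised counts in WT RGCs, 189.7, 324 and 424 in mutant RGCs, and 132, 142 and 79.2 in mutant non-RGC cells. All WT libraries lay above all mutant RGC libraries, and these above all non-RGC libraries. Scn1a fell 3.31-fold between genotypes, with means of 1037 ± 284 and 313 ± 118 (SD, n = 3 libraries per group; log2 -1.73, SE 0.34, limma adjusted p = 0.0258) and was lower in non-RGC cells than in mutant RGCs (log2 -1.37, SE 0.34, limma adjusted p = 0.0350). The authors' deposited table did not call the second difference (adjusted p = 0.0733). Scn2a1, an older symbol of Scn2a, encodes Nav1.2, the main sodium channel of young axons. It had 2491, 2789 and 1378 counts in WT RGCs, 585, 1226 and 1113 in mutant RGCs, and 248, 262 and 117 in non-RGC cells. The difference between genotypes did not pass (log2 -1.16, SE 0.37, limma adjusted p = 0.0568), although the groups did not overlap. The difference between fractions did (log2 -2.23, SE 0.38, limma adjusted p = 0.0127), a 4.69-fold lower level in non-RGC cells.

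Scn3a, the Nav1.3 gene of immature neurons, had the highest normalised count of the pore genes, with 3143, 3229 and 1942 in WT RGCs, 877, 1665 and 1592 in mutant RGCs, and 672, 659 and 353 in non-RGC cells. It missed the threshold between genotypes (log2 -0.99, SE 0.31, limma adjusted p = 0.0543) and passed between fractions (log2 -1.30, SE 0.33, limma adjusted p = 0.0364). Scn8a, which encodes the mature axonal channel Nav1.6, had 1766, 1846 and 1049.7 counts in WT, 875, 886 and 996 in mutant RGCs and 893, 922 and 642 in non-RGC cells. It passed neither test, and its 2 mutant fractions overlapped (log2 -0.18, SE 0.15, limma adjusted p = 0.443). Scn9a, which encodes Nav1.7, varied widely within groups, with 193, 745 and 748 counts in mutant RGCs and 131, 199.5 and 19.5 in non-RGC cells. Its WT counts were 1537, 1489 and 983, and neither comparison passed with limma (adjusted p = 0.0873 and 0.0956). The authors' deposited table called Scn9a lower between genotypes (adjusted p = 0.0231). The muscle channel gene Scn4a was the only pore gene with a positive value between genotypes, at 21.6, 32.6 and 39.4 counts in WT and 57.4, 44.8 and 65.2 in mutant RGCs (log2 0.87, SE 0.29, limma adjusted p = 0.0643). Across the 9 tested pore genes the median log2 fold change was -1.16 between genotypes, with 1 limma call. It was -1.37 between fractions, with 4 limma calls, all lower.

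Sodium channel beta subunits are single-span membrane proteins that speed channel gating and bind adhesion molecules. Of 3 tested genes, 2 fell between genotypes and all 3 were lower in non-RGC cells. Scn2b had 422, 442 and 269.6 counts in WT, 154, 236 and 214 in mutant RGCs and 71.2, 79.4 and 61.7 in non-RGC cells, and was lower in both comparisons (log2 -0.86 and -1.48, limma adjusted p = 0.0475 and 0.00876). Scn3b had the highest count of the class, with 2886, 2802 and 2192, then 919.8, 1728 and 1677, then 444, 515 and 329. Scn3b missed the threshold between genotypes (log2 -0.88, SE 0.27, limma adjusted p = 0.0516) and passed between fractions (log2 -1.71, SE 0.27, limma adjusted p = 0.0111).

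Calcium channel pore genes fell in 5 of 9 tested members between genotypes and were lower in 3 of 9 in non-RGC cells. Cacna1a encodes the P/Q-type channel of presynaptic terminals and had 3432, 3248 and 1989 counts in WT RGCs, 769.9, 1216 and 1396 in mutant RGCs and 763, 908 and 589 in non-RGC cells. It fell 2.51-fold between genotypes (log2 -1.33, SE 0.29, limma adjusted p = 0.0288), and the mutant fractions overlapped (log2 -0.56, SE 0.25, limma adjusted p = 0.172). Cacna1b, the N-type channel gene, had 4543, 4531 and 2748 counts in WT, 1244, 2395 and 2260.2 in mutant RGCs and 745, 848 and 457 in non-RGC cells. Here the test between genotypes was missed (log2 -0.99, SE 0.31, limma adjusted p = 0.0564) and that between fractions passed (log2 -1.51, SE 0.31, limma adjusted p = 0.0196). The authors' deposited table called Cacna1b lower between genotypes (adjusted p = 0.0418). The L-type gene Cacna1c, which couples activity to transcription, had 751, 902 and 427 counts in WT, 267, 354 and 377 in mutant RGCs and 174, 236 and 116 in non-RGC cells. It passed both tests narrowly (log2 -0.97 and -0.96, limma adjusted p = 0.0493 and 0.0484), and the authors' deposited table did not call the first (adjusted p = 0.0763).

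The 3 T-type genes, whose channels open near the resting potential, all fell between genotypes, and 1 of them was lower in non-RGC cells. Cacna1h had the highest count of all calcium channel pore genes and a small difference, with 4317, 4338 and 4482 counts in WT RGCs and 3115, 3259 and 3486 in mutant RGCs (log2 -0.38, SE 0.07, limma adjusted p = 0.0250). In non-RGC cells Cacna1h had 4144, 4298 and 3219 counts, which overlapped the mutant RGCs (log2 0.23, SE 0.12, limma adjusted p = 0.226). The authors' deposited table did not call Cacna1h between genotypes (adjusted p = 0.0892). Cacna1g had 2232, 2226 and 1669 counts in WT, 1269, 1206 and 1289.8 in mutant RGCs and 1292, 1324 and 1136 in non-RGC cells, so it fell between genotypes (log2 -0.66, SE 0.12, limma adjusted p = 0.0244) with a log2 difference of -0.01 (SE 0.08, limma adjusted p = 0.957) between fractions. Cacna1i had 908, 1007 and 465, then 259, 375 and 353, then 125, 139 and 111 counts. It was lower in both comparisons (log2 -1.17, SE 0.31, and -1.38, SE 0.18, limma adjusted p = 0.0388 and 0.00759).

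All 4 calcium channel beta subunit genes, whose products bring the pore to the membrane, fell between genotypes, with a class median of -1.03. Cacnb1 had 2238, 2094 and 1715 counts in WT RGCs, 667, 1186 and 1261 in mutant RGCs and 528, 567 and 403 in non-RGC cells (log2 -0.97, SE 0.26, and -1.02, SE 0.26, limma adjusted p = 0.0400 and 0.0372), and the authors' deposited table did not call its fractions apart (adjusted p = 0.0801). Cacnb4 had 596, 564 and 351, then 165, 257 and 237, then 106, 102 and 89.5 counts (log2 -1.15 and -1.12, limma adjusted p = 0.0298 and 0.0140). Cacnb3, with the highest count of the class, moved less, from 3047, 2922 and 2859 in WT to 1712, 2203 and 2271 in mutant RGCs and 1567, 1665 and 1688 in non-RGC cells (log2 -0.49, limma adjusted p = 0.0369, and -0.32, limma adjusted p = 0.106). Cacnb2 fell between genotypes by 1.10 on the log2 scale (SE 0.25, limma adjusted p = 0.0299) and did not pass between fractions. Of the 4 alpha2delta genes, whose extracellular products raise channel number at the membrane, only Cacna2d2 fell. It had 2361, 2357 and 1695 counts in WT, 1194, 1348 and 1455 in mutant RGCs and 1126, 1156 and 1091 in non-RGC cells (log2 -0.64, SE 0.15, limma adjusted p = 0.0320, and -0.24, SE 0.09, limma adjusted p = 0.111).

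Genes named as calcium channel gamma subunits mostly encode partners of AMPA-type glutamate receptors. Of 6 tested, 3 fell between genotypes and 3 were lower in non-RGC cells. Cacng5 differed most between fractions, with 2327, 2290.3 and 1549 counts in WT RGCs, 673, 1216 and 1154 in mutant RGCs and 155, 238 and 82.3 in non-RGC cells. Its libraries fell into 3 groups without overlap, 2.01-fold lower in mutant than WT RGCs (log2 -1.01, SE 0.27, limma adjusted p = 0.0407) and 6.74-fold lower in non-RGC cells than in mutant RGCs (log2 -2.75, SE 0.40, limma adjusted p = 0.00903). Cacng2, which encodes stargazin, had 1348, 1365 and 1039.9, then 648, 874 and 908, then 506, 445 and 532 counts (log2 -0.60 and -0.70, limma adjusted p = 0.0469 and 0.0212). Cacng4, the member with the highest count, had 3525, 3486 and 3225, then 2577, 2914 and 2922, then 2085, 2214 and 2406 counts. Cacng4 did not pass between genotypes (log2 -0.25, SE 0.09, limma adjusted p = 0.0677) and was lower in non-RGC cells (log2 -0.33, SE 0.08, limma adjusted p = 0.0357), a difference that the authors' deposited table did not call (adjusted p = 0.143).

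**Figure D2:**
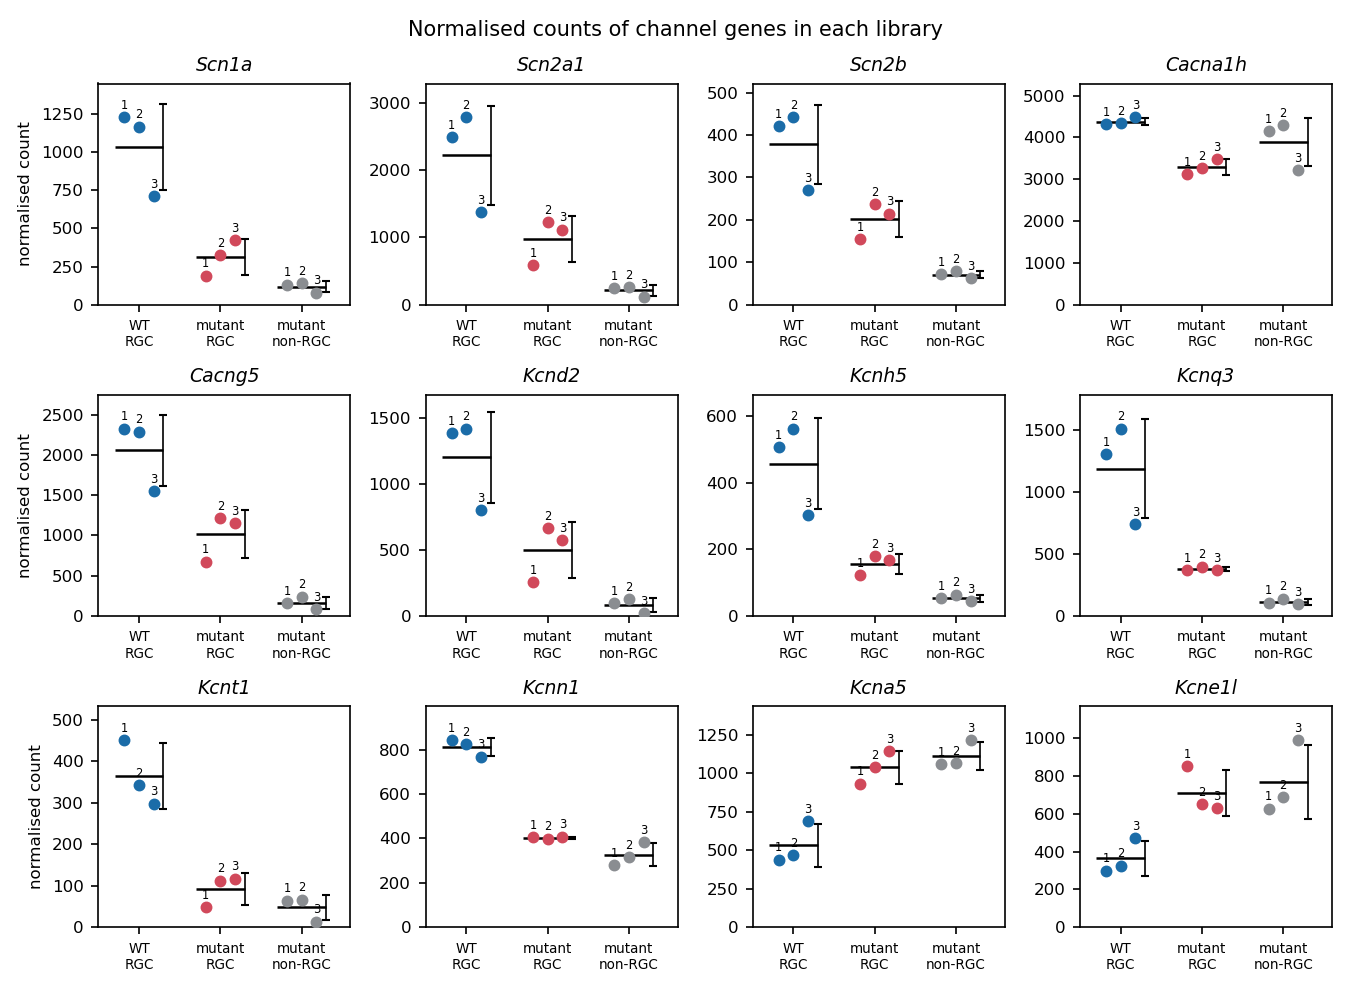
Normalised counts (vertical axes, linear and starting at 0) of 12 channel genes in each of the 9 libraries, with the library number beside each point, the group mean as a line and the SD as a bar. Scn1a, Kcnq3 and Kcnn1 lie lower in every mutant RGC library than in any WT library, Cacng5 and Kcnd2 lie lower in every non-RGC library than in any RGC library, and Kcna5 and Kcne1l lie higher in both mutant groups than in WT RGCs.

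The Kv1 to Kv4 pore genes encode delayed rectifier and transient potassium channels. Of 15 tested, 4 fell and 1 rose between genotypes, and 6 of 15 were lower in non-RGC cells. The 6.67% that rose was below the 13.7% of all genes tested. Kcnc1 encodes Kv3.1, a channel that closes fast and permits rapid firing, and had 2426, 2437 and 1508 counts in WT RGCs, 883, 1151 and 1188 in mutant RGCs and 464, 553 and 508 in non-RGC cells. The 3 groups did not overlap, with log2 differences of -0.93 (SE 0.22, limma adjusted p = 0.0312) and -1.07 (SE 0.14, limma adjusted p = 0.00711). Kcnc4, of the same family, had 1129, 1058 and 649, then 232, 424 and 434, then 118, 154 and 99.8 counts (log2 -1.36 and -1.51, limma adjusted p = 0.0308 and 0.0150). Kcnd2 encodes Kv4.2, a transient channel of dendrites, and had 1385, 1422 and 804 counts in WT, 256, 667 and 577 in mutant RGCs and 98.1, 127 and 20.6 in non-RGC cells. Kcnd2 was 7.15-fold lower in non-RGC cells than in mutant RGCs (log2 -2.84, SE 0.69, limma adjusted p = 0.0316) and missed the threshold between genotypes (log2 -1.30, SE 0.40, limma adjusted p = 0.0550). Kcnd3, the pore gene of this class with the highest count, had 2243, 2311 and 1545, then 1389, 1427 and 1414, then 801, 759 and 786 counts. Its difference between fractions had the smallest adjusted p of the members described here (log2 -0.85, SE 0.06, limma adjusted p = 0.00414), and that between genotypes did not pass (log2 -0.47, SE 0.15, limma adjusted p = 0.0606).

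Kcna5, which encodes the delayed rectifier Kv1.5, went the other way. It had 437, 466 and 690.3 counts in WT RGCs, 931, 1039 and 1144 in mutant RGCs and 1057, 1062 and 1216 in non-RGC cells. Every mutant library lay above every WT library, WT library 3 was the highest of its group, and Kcna5 rose 2.03-fold, with means of 531 ± 138 and 1038 ± 106 (SD, n = 3 libraries per group; log2 1.02, SE 0.19, limma adjusted p = 0.0244). Its mutant fractions overlapped (log2 0.10, SE 0.10, limma adjusted p = 0.547).

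Silent Kv subunits form no channel alone and alter the Kv2 channels they join. Kcng1 had 166, 119 and 103 counts in WT RGCs, 35.2, 64.4 and 51.6 in mutant RGCs and 11.5, 12.6 and 3.09 in non-RGC cells, and Kcnv1 had 112, 129 and 72.3, then 26.8, 45.7 and 59.4, then 6.73, 6.78 and 3.09. Both were lower in mutant than WT RGCs (log2 -1.32 and -1.23, limma adjusted p = 0.0297 and 0.0491) and lower again in non-RGC cells (log2 -2.50 and -2.78, limma adjusted p = 0.0210 and 0.0111). Kcns2, another silent subunit gene, had 498, 493 and 343, then 166, 283 and 284, then 76.0, 78.4 and 55.5 counts. It passed between fractions (log2 -1.76, SE 0.26, limma adjusted p = 0.00923) and missed between genotypes (log2 -0.85, SE 0.26, limma adjusted p = 0.0546). In all, 3 of 7 tested silent subunit genes fell between genotypes and 3 of 6 were lower in non-RGC cells.

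Kv7 channels carry the M-current, a slow potassium current that restrains repetitive firing. Of 4 tested Kv7 genes, 3 fell between genotypes and 2 were lower in non-RGC cells. Kcnq3, which encodes a pore subunit of the M-current, had 1309, 1516 and 742 counts in WT RGCs, 371, 399 and 368 in mutant RGCs and 108, 140.4 and 93.6 in non-RGC cells. The 3 groups did not overlap, and the mutant RGC libraries lay close to each other. Kcnq3 was lower by 1.55 on the log2 scale between genotypes (SE 0.25, limma adjusted p = 0.0238). Between fractions its log2 difference was -1.75 (SE 0.17, limma adjusted p = 0.00461).

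The ether-a-go-go family, with its EAG, ERG and ELK branches, shapes spike threshold and resting conductance. Of 7 tested, 4 fell between genotypes and 3 were lower in non-RGC cells. The EAG genes Kcnh1 and Kcnh5 fell together, Kcnh1 from 532, 396 and 251 counts in WT to 97.2, 149 and 159 in mutant RGCs, and Kcnh5 from 506, 562 and 301 to 123, 178 and 166. In non-RGC cells Kcnh1 had 30.8, 34.9 and 10.3 counts and Kcnh5 52.9, 63.9 and 43.2. Their log2 differences were -1.47 and -1.48 between genotypes (limma adjusted p = 0.0282 and 0.0244) and -2.51 and -1.53 between fractions (limma adjusted p = 0.0148 and 0.00922). The ERG gene Kcnh7 had 784, 809 and 381, then 248, 312 and 321, then 155, 150.1 and 118 counts (log2 -1.06 and -1.05, limma adjusted p = 0.0447 and 0.0109), and the authors' deposited table did not call it between genotypes (adjusted p = 0.0598). The ELK gene Kcnh4 fell from 873, 739 and 687 to 135, 337 and 358 (log2 -1.55, SE 0.38, limma adjusted p = 0.0333), and with 108, 124 and 71.0 counts in non-RGC cells missed the threshold between fractions (log2 -1.36, SE 0.40, limma adjusted p = 0.0581). The ERG gene Kcnh2, with the highest count of the family, passed neither test (log2 -0.31 and -0.12, limma adjusted p = 0.0728 and 0.476).

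Auxiliary subunits of Kv channels were the only class with a median above 0 between genotypes, at 0.06, and had a median of -0.05 between fractions. Of 10 tested, 2 rose and 2 fell between genotypes, and of 11 tested, 1 was higher and 2 were lower in non-RGC cells. Between genotypes this was 20% in each direction, against 13.7% higher and 12.3% lower over all genes tested. Between fractions it was 9.09% higher and 18.2% lower, against 5.07% and 12%. Kcnab2, whose product guides Kv1 channels to the axon, had 2893, 2793 and 2209 counts in WT RGCs, 1275, 1848 and 1778 in mutant RGCs and 839.7, 1038 and 928 in non-RGC cells. It was lower in both comparisons (log2 -0.66, SE 0.18, and -0.79, SE 0.16, limma adjusted p = 0.0409 and 0.0180). Kcnip4, which encodes a calcium-binding partner of Kv4 channels, fell from 339, 349 and 142 to 71.2, 103 and 91.5 counts, with 54.8, 35.8 and 30.9 in non-RGC cells (log2 -1.51 and -1.14, limma adjusted p = 0.0334 and 0.0327).

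The beta subunit genes related to Kcnab2 were not lower in mutant cells. Kcnab1 rose from 131, 174 and 135 counts in WT RGCs to 218, 232 and 256 in mutant RGCs, with 250.1, 245 and 209.8 in non-RGC cells (log2 0.73, SE 0.16, limma adjusted p = 0.0281, and -0.01, SE 0.13, limma adjusted p = 0.981). Kcnab3 had 132, 123 and 178, then 211, 186 and 214, then 316, 298 and 309 counts, and was the only member called higher in non-RGC cells (log2 0.60, SE 0.10, limma adjusted p = 0.0132). Its difference between genotypes, of 0.55 (SE 0.17) on the log2 scale, did not pass (limma adjusted p = 0.0576). Kcne1l, an X-linked gene for a small single-span subunit, had 299.7, 325 and 470.1 counts in WT, 850.4, 651 and 631 in mutant RGCs and 627, 689 and 990.4 in non-RGC cells. Kcne1l rose 2.01-fold between genotypes (log2 1.01, SE 0.19, limma adjusted p = 0.0250), and its mutant fractions overlapped (log2 0.10, SE 0.18, limma adjusted p = 0.763).

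Calcium- and sodium-activated potassium channels end bursts of spikes. Of 9 tested genes, 3 fell between genotypes, and of 10 tested, 1 was lower in non-RGC cells. The share between fractions, 10%, was near the 12% of all genes tested. Kcnt1, which encodes the sodium-activated channel Slack, had 452, 343 and 298 counts in WT RGCs, 49.0, 112 and 117 in mutant RGCs and 64.4, 66.8 and 13.4 in non-RGC cells. Its 4.02-fold decrease, from 364 ± 79.2 to 92.6 ± 37.8 (SD, n = 3 each), was the largest between genotypes of all members tested (log2 -2.01, SE 0.37, limma adjusted p = 0.0244), whereas the mutant fractions overlapped (log2 -1.13, SE 0.65, limma adjusted p = 0.284). Kcnn1, the gene of the small-conductance channel SK1, had 844, 826 and 768 counts in WT, 404, 399 and 408 in mutant RGCs and 281, 317 and 385 in non-RGC cells. The WT and mutant RGC libraries of Kcnn1 were closely grouped, and its decrease had the smallest standard error of the potassium channel differences between genotypes given here (log2 -0.97, SE 0.07, limma adjusted p = 0.00713). Between fractions Kcnn1 did not pass (log2 -0.31, SE 0.12, limma adjusted p = 0.129). The SK2 gene Kcnn2 fell as well, from 542, 552 and 364 to 175, 217 and 228 counts (log2 -1.18, SE 0.20, limma adjusted p = 0.0238), with 142, 155 and 159 in non-RGC cells (limma adjusted p = 0.0882). The BK channel gene Kcnma1 was the member called between fractions, at 559, 618 and 278, then 254, 271 and 311, then 129.9, 157 and 116 counts (log2 -1.05, SE 0.16, limma adjusted p = 0.00930), with no call between genotypes (limma adjusted p = 0.120).

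Inward rectifier genes fell in 3 of 10 tested members between genotypes and were lower in 2 of 11 in non-RGC cells. The share between fractions was 18.2%, beside 12% of all genes tested. Kcnj12, the Kir2.2 gene, had 161, 145 and 89.9 counts in WT RGCs, 52.7, 54.1 and 65.2 in mutant RGCs and 11.5, 25.2 and 24.7 in non-RGC cells (log2 -1.12 and -1.52, limma adjusted p = 0.0305 and 0.0254). The G protein-gated Kcnj5 had 80.6, 66.3 and 49.3, then 13.0, 22.4 and 22.4, then 2.89, 3.87 and 2.06 counts (log2 -1.69 and -2.36, limma adjusted p = 0.0249 and 0.0153). The related Kcnj9 fell from 309.6, 274 and 185 to 109, 128 and 128 counts (log2 -1.01, SE 0.21, limma adjusted p = 0.0275) and overlapped between fractions, with 120.2, 116 and 148 in non-RGC cells. Kcnj10 encodes Kir4.1, the main potassium channel of Mueller glia. It had 157, 186 and 291 counts in WT, 421, 319 and 320.2 in mutant RGCs and 421, 404 and 415 in non-RGC cells, and its higher level in mutant RGCs did not pass with limma (log2 0.81, SE 0.24, adjusted p = 0.0501) but did in the authors' deposited table (adjusted p = 0.0246).

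Two-pore-domain channels carry the background potassium current. Of 10 tested, 3 fell and 1 rose between genotypes and 4 were lower in non-RGC cells. The share that rose, 10%, was below the 13.7% of all genes tested. The mechanosensitive TRAAK gene Kcnk4 fell 3.69-fold from a low level, with 119.9, 118 and 53.7 counts in WT RGCs and 15.7, 27.1 and 30.2 in mutant RGCs (log2 -1.88, SE 0.41, limma adjusted p = 0.0282). With 11.5, 8.72 and 4.11 counts in non-RGC cells it missed the threshold between fractions (limma adjusted p = 0.0660). The TREK-2 gene Kcnk10 had 369, 404 and 220.2, then 101, 133 and 145, then 46.2, 37.8 and 27.8 counts, with log2 differences of -1.32 and -1.75 (limma adjusted p = 0.0267 and 0.00914). The acid-sensitive TASK-1 gene Kcnk3 had 562, 557 and 361, then 202, 272 and 282, then 124, 161 and 156 counts (log2 -0.92 and -0.77, limma adjusted p = 0.0328 and 0.0293). Kcnk1, the TWIK-1 gene, rose from 486, 487 and 691 in WT to 769.9, 938 and 903 in mutant RGCs (log2 0.70, SE 0.17, limma adjusted p = 0.0323), with 993, 1030.4 and 987 in non-RGC cells (log2 0.21, SE 0.09, limma adjusted p = 0.179).

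Marker lists differed between the groups as well, though not all in the same way. Of 28 ganglion cell markers tested, 15 fell and none rose between genotypes, with a median log2 fold change of -0.76 beside -0.71 for the channel subunits. Between fractions 18 of the 28 were lower and none was higher, with a median of -1.82 beside -0.56. None of the 28 was at 0 in all libraries. Of 26 proliferation genes, 25 rose between genotypes (median 1.00) and 13 were higher in non-RGC cells. The 18 progenitor and Mueller glia markers summed to 25179, 26143 and 37382 in WT RGCs, to between 40244 and 42019 in mutant RGCs and to between 44783 and 46837 in non-RGC cells. Of 18 photoreceptor markers tested, 7 rose and none fell between genotypes (median 0.64). Between fractions none was higher and 1 was lower in non-RGC cells (median 0.14). Of 16 microglia and macrophage markers, none was called between genotypes (median -0.25) and 15 were lower in non-RGC cells (median -5.79). Of 17 amacrine and horizontal cell markers, 8 rose and 1 fell between genotypes (median 0.58), and 1 was higher in non-RGC cells (median 0.07). These 17 summed to between 16924 and 17851 in WT RGCs, between 19533 and 21944 in mutant RGCs and between 20825 and 22615 in non-RGC cells. Of 15 endothelial and pericyte markers, 1 rose between genotypes (median 0.22) and none was called between fractions (median -1.03). Of 7 astrocyte markers tested, 1 fell between genotypes (median 0.66) and none was called between fractions (median -0.06). Of 5 bipolar cell markers tested, 1 was lower in non-RGC cells (median -0.30), with a median of 0.17 between genotypes. In Kcna5, Kcne1l and Kcnk1, WT library 3 was the highest WT library and all mutant libraries lay above it. The same held for the proliferation, progenitor and Mueller glia, photoreceptor, and amacrine and horizontal cell sums. In Kcnab1, the other member that rose, WT library 2 was the highest WT library, and all mutant libraries lay above it. The part of cell mixture in the channel differences was not tested.

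**Figure D3:**
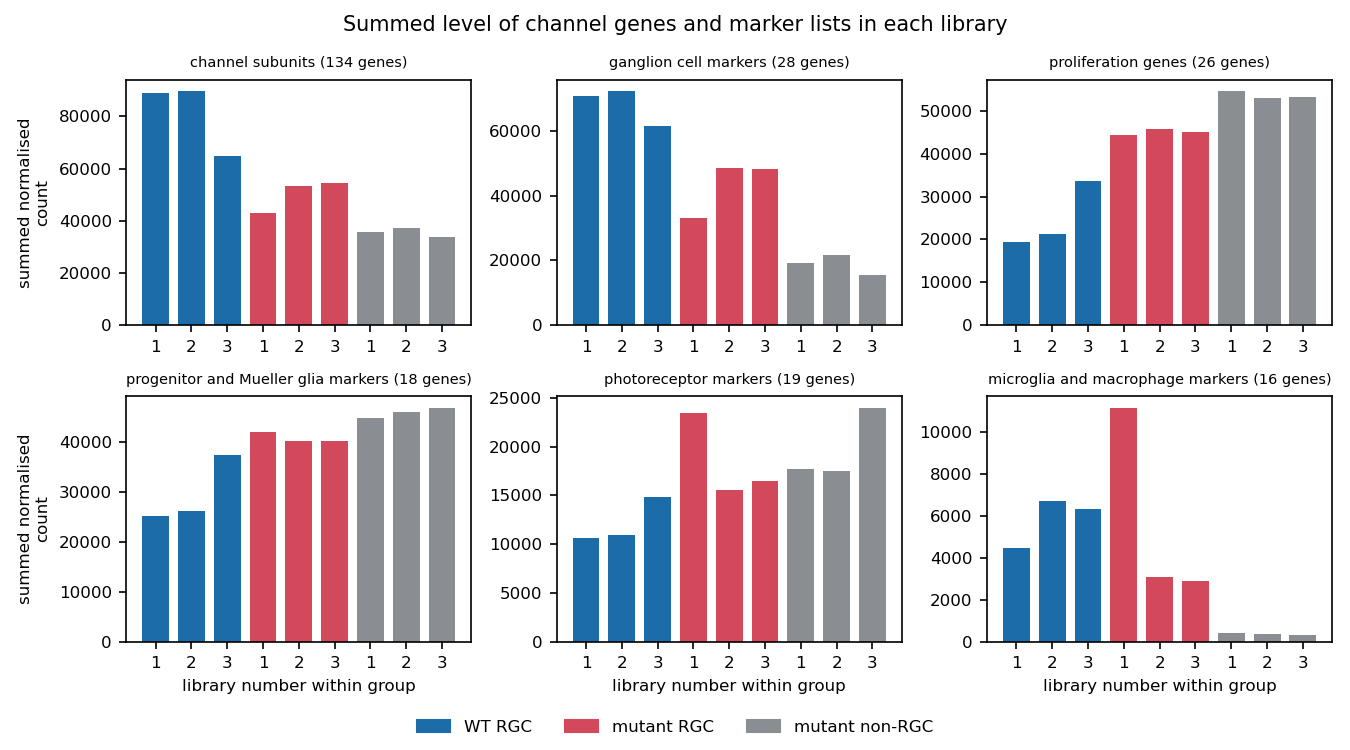
Summed normalised count (vertical axes, linear from 0) of the 134 channel subunit genes and of 5 marker lists in each library, with bars in library order within WT RGCs, mutant RGCs and mutant non-RGC cells. Channel and ganglion cell sums are highest in WT RGCs and lowest in non-RGC cells, proliferation and progenitor sums run the other way, and the microglia sum of mutant RGC library 1 (11146) exceeds that of every other library.

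Of 28 tested genes of proteins that anchor or scaffold channels, 10 fell and none rose between genotypes (median -0.50), and 16 were lower and none higher in non-RGC cells. Cntnap1, which encodes an adhesion protein beside the nodes of axons, fell from 776, 643 and 455 to 202, 252 and 233 counts (log2 -1.38, SE 0.21, limma adjusted p = 0.0231), and the axon initial segment spectrin gene Sptbn4 by 1.42. Fgf12, whose product binds the tail of sodium channels, was lower in non-RGC cells (log2 -1.83, SE 0.23, limma adjusted p = 0.00696). Of 38 other cation channel genes tested, 10 fell and 5 rose between genotypes, with a median of -0.54. Over all genes tested, 12.3% fell and 13.7% rose between genotypes, and 12% were lower and 5.07% higher in non-RGC cells. The share of other cation channel genes that rose was near that of all genes. Of 37 tested between fractions, 11 were lower and 1 was higher in non-RGC cells, with a median of -0.06. The pacemaker channel gene Hcn2 fell by 1.14 on the log2 scale, while the cone channel subunit gene Cngb3 rose by 0.96. Of 21 pump and exchanger genes tested, 6 fell and 1 rose between genotypes, and 11 of 20 were lower in non-RGC cells. The sodium-calcium exchanger gene Slc8a2 fell by 0.84 (limma adjusted p = 0.0362).

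The members left untested had few reads. Below the mean of 10 stood 27 members between genotypes and 25 between fractions, among them the muscle genes Cacna1s and Cacng1, the pain neuron gene Scn10a and the cardiac and epithelial gene Kcnq1. Kcna10 and Kcnk16 had 0 reads in all 9 libraries, Kcnk18 had 3 and Scn10a 4. Scn4b, which encodes the beta subunit of resurgent sodium current, had 10 reads over the 9 libraries. Kcne1, Kcnj4 and Kcnn4 reached the minimum between fractions only.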

How the data were processed

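Per the submitters' processing notes, genome build mm10 (GRCm38) and the tools STAR 2.3, featureCounts, FastQC and DESeq were used for the RNA reads. No strand setting is given in the sources used here, so antisense overlaps cannot be told apart. Per the file headers, the authors deposited mean normalised counts per condition, the fold change as a ratio and as log2, and p-values with adjusted p-values. Whole reads of each library were recovered from the deposited condition means, since a mean of 3 libraries is a sum of whole reads, each divided by 3 times a size factor. A solution was unique for at least 99.975% of genes above 0, and the mutant RGC reads from the 2 tables were identical for all 23953 genes compared. Which condition is A or B was read from genes at 0, with 0 mismatches for the mutant RGCs and at least 3098 for other pairings. Adcy1, Ank2, Dync1h1, Kif1b, Map1b and Reln had no unique solution in at least 1 group.

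Recovered reads divided by the authors' size factors were tested with limma 3.58.1 (variance trend, R 4.3.3) on log2(value + 1) over all genes with a mean of at least 10 in the 6 libraries, with Benjamini-Hochberg adjustment and calls at 0.05. Fold changes on this scale understate changes of low genes. Levels printed per library are on 1 scale set by medians of ratios over the 9 libraries. Transcript lengths were not used, so levels are not compared between genes beyond the normalised count. The check of the procedure used simulated data.

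Members were all symbols matching the rule. Members and lists were chosen with earlier results of these data known. Named genes are the 8 largest increases and decreases per comparison among called members with a mean of at least 50, members called in both comparisons, the member of each class with the highest count, and up to 3 called genes of each other list by adjusted p. Scn4a, Scn8a, Scn9a, Cacna1a, Cacna1b, Cacna1g, Cacnb2, Kcnn2, Kcnma1, Kcnj9, Kcnk6, Kcnj8, Cacna1f and Cacna2d4, the members named as untested or as not called by the authors, Ezh2 and Ehmt2 were chosen outside this rule, after their values were seen. Some genes that the rule names are not reported here. Coordinates and promoter windows are RefSeq's on GRCm38.p6. Alternatives were other scalings, filters and pseudocounts, limma-voom, the authors' deposited test, all 9 libraries in 1 fit, and leaving out each library.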

Additional observations from a re-analysis of the deposited data

How the results depend on the processing

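Without 1 library at a time, the number of members called between genotypes ranged from 0 to 74 lower (41 with all) and from 0 to 8 higher (4 with all). Between fractions it ranged from 12 to 48 lower (38 with all) and from 0 to 4 higher (1 with all). The limma threshold adjusts over all genes, and without WT library 1, WT library 2, mutant RGC library 2 or mutant RGC library 3 only 9, 8, 3 and 9 of all genes tested were called. With all 9 libraries in 1 fit, 7 members rose between genotypes. The other counts stayed within 1.5 times under upper-quartile and total-count scaling, no filter, a mean of at least 50, pseudocounts of 0.5 and 10, limma-voom and the authors' deposited test. No named member changed direction while called in any of these fits. Among members named by the rule, calls between genotypes were lost under at least 1 of them for Cacna1c, Cacna1h, Cacng2, Cacng5, Kcnh7, Kcnv1 and Scn2b. Between fractions this held for Cacna1c, Cacnb1, Cacng4, Kcnd2, Kcnip4 and Scn1a. Other members were not followed through every fit. Of all members that limma called lower, the authors' deposited table also called 35 of 41 between genotypes and 34 of 38 between fractions. Cacng8 and Kcnc2 were among those it did not call between genotypes. No paired analysis was possible because the tables carry no replicate numbers. The recovered counts cannot be tied to single samples, and a low gene such as Kcnj5 rests on few reads in non-RGC cells.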

Other observations

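Some channel genes were highest among mutant RGC libraries in the library where markers of another cell type were highest. Mutant RGC library 1 had the highest mutant RGC sum for microglia, endothelial and pericyte, photoreceptor, and amacrine and horizontal cell markers. The same held for astrocyte, bipolar cell, and progenitor and Mueller glia markers. It was also the highest mutant RGC library for 22 of the 107 members tested. A match in this library is therefore not particular to 1 cell type. Kcnk6, a two-pore-domain channel gene, had 30.5, 57.9 and 43.8 normalised counts in WT RGCs, 99.0, 42.9 and 53.5 in mutant RGCs and 5.77, 9.68 and 1.03 in mutant non-RGC cells. Its difference between fractions was the largest of the members tested (log2 -3.57, SE 0.65, limma adjusted p = 0.0145). The 16 microglia and macrophage markers summed to 4462, 6714 and 6315 in WT RGCs, 11146, 3091 and 2887 in mutant RGCs and 392, 384 and 310 in non-RGC cells, so Kcnk6 and these markers were both highest in mutant RGC library 1 and both low in all non-RGC libraries. Kcnj8, a pericyte channel gene that is itself on the list of 15 endothelial and pericyte markers, had 33.4, 66.3 and 8.77 counts in WT RGCs, 76.8, 0.933 and 3.89 in mutant RGCs and 0, 3.87 and 1.03 in non-RGC cells. That list summed to 4249, 5937 and 5352, then 10750, 5571 and 5868, then 6259, 6583 and 6842. Kcnj8 and the list sum were both highest in mutant RGC library 1, but their order differed in WT libraries. In non-RGC libraries Kcnj8 was near 0, while the list sum stood above mutant RGC libraries 2 and 3. Gene by gene, 14 of the 15 list genes had negative log2 differences between fractions (median -1.03), and none was called. The sum hence does not stand for the single genes.

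Kcnv2 and Cacna2d4, both known from photoreceptors, had 1 library above the others in each mutant group. Kcnv2, the silent subunit gene with the highest count, had 257, 303 and 339.7 counts in WT RGCs, 761, 294 and 294 in mutant RGCs and 301, 294 and 650.0 in non-RGC cells. Cacna2d4 had 479.6, 482 and 562, then 1118, 517 and 594, then 819, 781 and 1218. The 19 photoreceptor markers summed to 10650, 10972 and 14788, then 23498, 15535 and 16484, then 17703, 17526 and 23993. All were highest in mutant RGC library 1 and in non-RGC library 3 of their groups, and neither channel gene passed a test (limma adjusted p = 0.348 and 0.938 for Kcnv2 and 0.187 and 0.408 for Cacna2d4). The endothelial and pericyte, progenitor and Mueller glia, and amacrine and horizontal cell sums were highest in the same 2 libraries. Cacna1f, the L-type gene of photoreceptor terminals, had 81.6, 74.7 and 149 counts in WT RGCs, 166, 31.7 and 46.7 in mutant RGCs and 215, 158 and 188 in non-RGC cells. It was highest in mutant RGC library 1 too, but in non-RGC library 1 rather than 3.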
